A study of Gallus gallus with 14 samples.

Results

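The retinal pigment epithelium (RPE) of chicken embryos at embryonic day 18 (E18) was compared with that at day 7 (E7), the oldest and youngest ages of a developmental series. The comparison took the 4 arrays labelled E18 and the 4 labelled E7, out of 14 arrays in all, and every probe set that is not a hybridization control, 38439 of 38535. A probe set is a group of short probes on the array that together measure 1 transcript. Probe sets with exactly 1 gene symbol stood for 13008 genes, each represented by its probe set with the highest mean signal. Families and functional groups of these genes are described below, and their counts are to be read against the shares over all genes, of which 16.3% were called higher and 20% lower at E18. These shares include 2802 genes of low signal, and counts from a separate fit without the dimmest probe sets are given below.

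The labels name no treatment and no altered gene for either group, and give neither strain nor sex. Each array held RNA from an independent preparation of RPE sheets, pooled from 20 to 30 eyes, so the spread between arrays is that between pools and not between embryos. The other 6 arrays, from E10 and E14 embryos (3 each), served in the fit only for the estimate of the spread. They also entered the quantile normalization, the limit for low signal and the choice of the probe set that represents a gene. In whole tissue, fewer cells of a type and less RNA per cell cannot be told apart, and a share of all RNA is what each value measures.

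The RPE is the pigmented cell layer between the photoreceptors and the choroidal blood vessels. It renews the visual chromophore, engulfs shed photoreceptor tips, and carries nutrients, ions and waste between retina and blood. In the chick its cells divide early, then leave the cell cycle and take on their transport, barrier and visual functions before hatching, with thyroid hormone among the signals that rise in the embryo toward that time.

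Changes are log2 differences between age means (E18 minus E7, 4 arrays each) followed by ± their standard error (SE) from a limma fit over all 14 arrays, on values of log2(signal + 16) after quantile normalization. A change with a Benjamini-Hochberg adjusted p under 0.05 over all 38439 probe sets is named a call, and rose and fell are used only of calls. Where the lower age mean was below 6.2, the upper bound of the dimmest 40% of probe sets, the gene is said to be dim, and its fold change moves with the pseudocount chosen. The p-values set the difference of the age means against the spread between preparations, estimated over all 14 arrays. They take the arrays of an age to vary independently of each other.

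Of 25 markers of the labelled tissue 0 had both age means under the limit for low signal. Not all were among the brightest genes, and TTR of this list had log2 signals of 8.62 to 9.07 at E7. Of the 25 RPE markers 13 rose and 6 fell, or 10 and 1 after median centring. Their summed linear signal, which weighs bright genes most, ran from 304873 to 308586 at E7 and from 421200 to 429744 at E18. The markers named next are a selection, and none of those that fell is among them. The pigment enzyme gene TYRP1 had log2 signals of 15.01 to 15.14 at E7 and 15.17 to 15.20 at E18, near the top of the scale, and its change of 0.09 ± 0.05 was not called. RLBP1, a retinoid-binding protein of the RPE, went from 14.88 ± 0.04 (SD, n = 4) to 15.21 ± 0.09 (SD, n = 4). The RPE channel gene BEST1 was measured at 12.08 to 12.40 and 12.14 to 12.45.

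The arrays of an age were not all alike. Median deposited signals were 96.9 to 145 at E7 and 87.5 to 100.6 at E18. On the first principal component of all 14 arrays (42.1% of the variance) the E7 and E18 arrays lay at opposite ends. The second component (15.7%) set 4 arrays apart from the remaining 10, with scores of 38.3 to 54.9 against -36.3 to 12.4. These were replicates 1 and 2 of E7 together with replicates 2 and 3 of E18, and they are named the 4 arrays that stood apart. ACTB probe sets at the 3' and 5' ends of its transcript serve as a check on RNA integrity, and their ratio was lowest in the same arrays, at 1.18 to 1.30. The same ratio for EEF1A was 1.34 to 1.37 at E7 and 1.48 to 1.61 at E18, so it moved with age, and its part in the results below was not tested. E7 replicate 4 and E18 replicates 1 and 4 came with instrument files that record the same hybridization start and day of scanning, named the shared session here. The other 5 arrays have no such file among those used here, and whether they belonged to that session is not known. They are the 4 arrays that stood apart and E7 replicate 3. Values within the shared session and values without the 4 arrays thus differ only by E7 replicate 3 and are not separate checks. The only E7 array of the session, replicate 4, had the median of 145.

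Of the 38439 probe sets, 9177 (23.9%) were called. Of these 4198 (10.9%) were higher and 4979 (13%) lower at E18, and 12526 had an unadjusted p under 0.05. At least 2-fold changes were called for 1999 higher (5.2%) and 2014 lower (5.24%) probe sets. Of 13008 genes 4728 (36.3%) were called, 2126 (16.3%) rose and 2602 (20%) fell, and the median change was -0.03. At least 2-fold rises were seen in 904 genes (6.95%) and at least 2-fold falls in 852 (6.55%), and at least 4-fold changes in 259 (1.99%) and 187 (1.44%). The 4 E7 and 4 E18 arrays did not overlap in 4506 genes (34.6%). Genes named below for the size of their change were taken from these, so their lack of overlap is no separate result. With the dimmest 40% of probe sets left out 10206 genes remained. In a separate fit, adjusted without those probe sets, 2209 of them were called higher and 2725 lower. These are larger shares than over all genes, but the calls are those of that fit and not the reported ones. Ribosome biogenesis had 2 of 67 genes under that limit and fatty acid oxidation 1 of 40. For such lists the shares over all genes are a low baseline. The balance depended on the scaling. Of the called probe sets 45.7% were higher at E18, against 35.8% on the deposited scale and 57.3% after median centring. The median change of all genes was -0.13 and 0.09 on those scales. List counts under an alternative are to be set beside those of all genes there. All genes had 1915 rises and 3007 falls on the deposited scale and 2028 and 1345 after median centring. They had 1924 and 2214 without the 4 arrays that stood apart and 1626 and 2167 within the arrays without an instrument file. The shared session held 1 E7 array, so counts within it rest on fewer arrays than the reported ones. Its E18 arrays, replicates 1 and 4, had summed erythrocyte marker signals of 50475 and 51897, against 4814 and 4415 in replicates 2 and 3. The part of blood cells in differences between these array subsets was not tested.

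**Figure D1:**
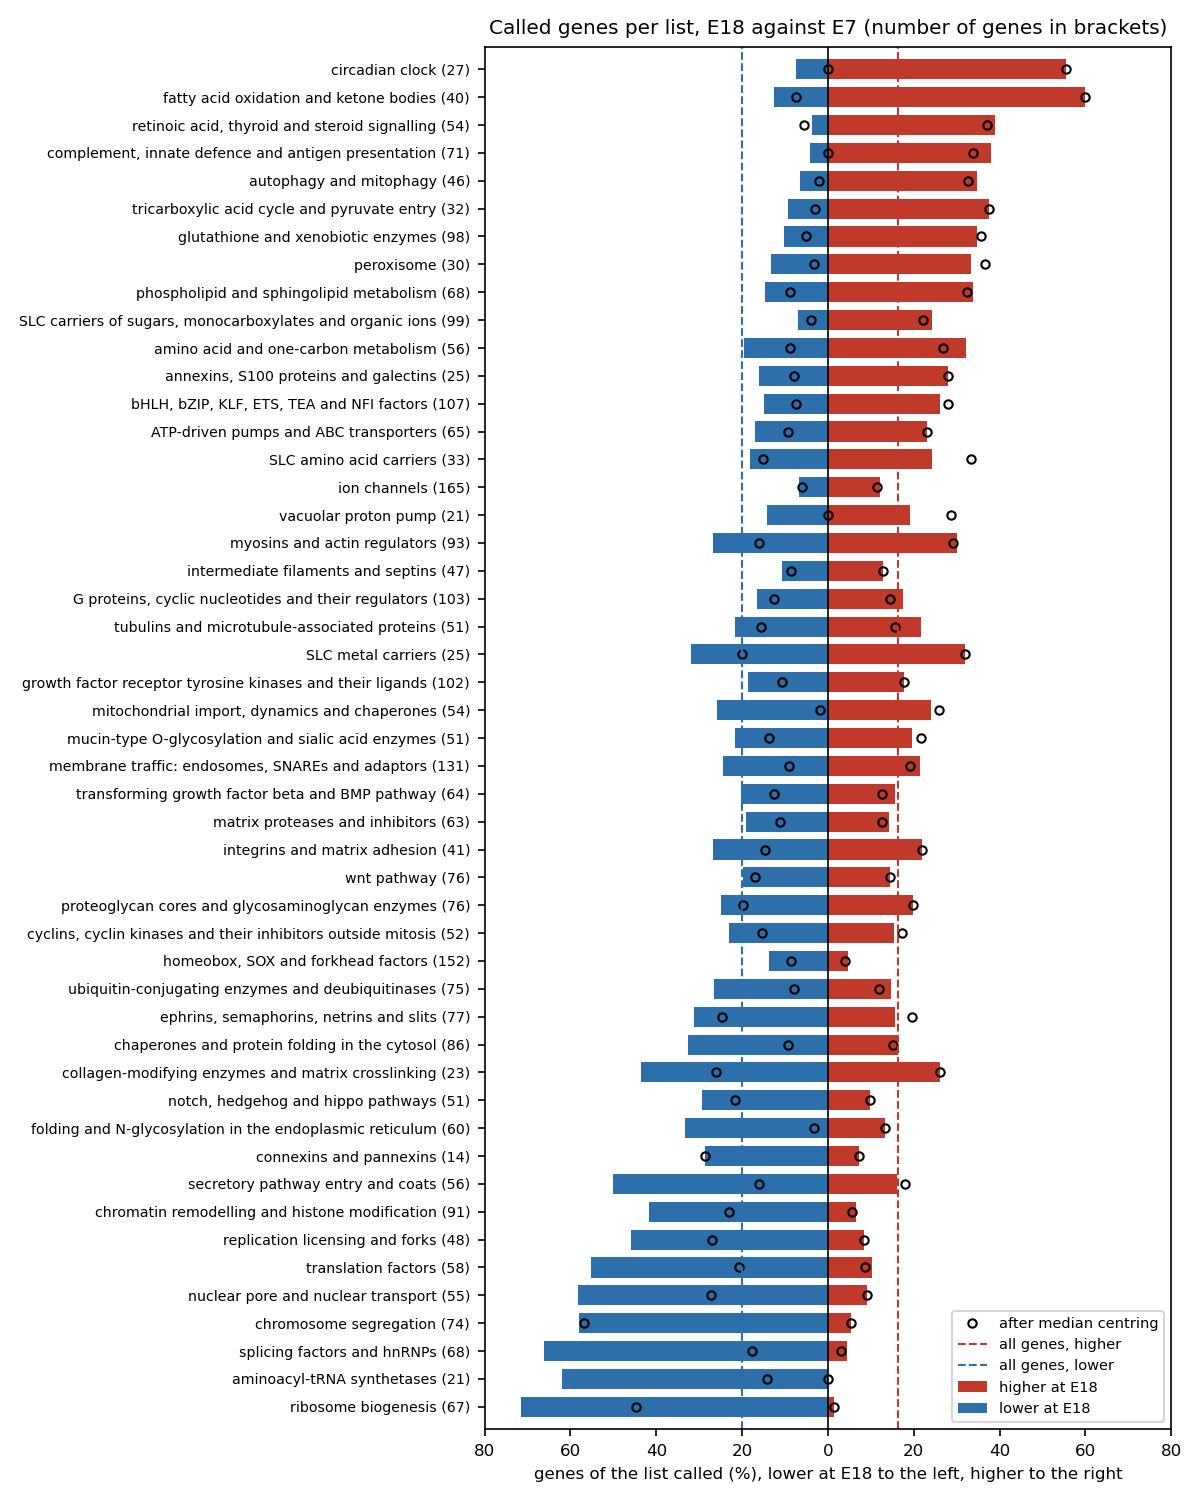
Each bar gives the percentage of the genes of a list called higher (right, red) or lower (left, blue) at E18 than at E7, with the number of genes in brackets; circles give the same after median centring of the arrays and dashed lines the shares over all genes (16.3% and 20%). Ribosome biogenesis, aminoacyl-tRNA synthetases, splicing, chromosome segregation and nuclear transport lie at the bottom with mostly falls. The clock and fatty acid oxidation lists lie at the top with mostly rises, and the falls of several lists are much shorter after median centring.

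Genes of the circadian clock, of fatty acid oxidation and of hormone signalling had the highest net shares of rises among the lists of functions. Thyroid hormone reaches cells as the prohormone thyroxine, is activated inside them by the deiodinase DIO2, inactivated by DIO3, and acts through the nuclear receptors THRA and THRB. Of 54 genes of retinoic acid, thyroid and steroid signalling 21 rose and 2 fell, with a median change of 0.28. The count was 16 and 6 on the deposited scale, 20 and 3 after median centring, and 15 and 4 without the 4 arrays that stood apart.

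DIO2 had log2 signals of 8.48, 8.33, 7.93 and 8.11 in the E7 arrays and 13.09, 13.52, 13.48 and 13.05 in the E18 arrays. All E18 arrays lay far above all E7 arrays, and the rise was 5.07 ± 0.14, or 33.7-fold (limma adjusted p = 7.4e-14). The E10 and E14 means of DIO2 were 8.24 and 10.37, so E10 lay close to E7 and the signal was intermediate at E14. KLF9, a transcription factor gene known in vertebrates to respond directly to thyroid hormone and glucocorticoids, was at 6.83, 6.30, 6.85 and 5.75 at E7 and at 10.96, 11.79, 11.82 and 11.17 at E18. No E7 array reached any E18 array, and KLF9 rose by 5.0 ± 0.25, or 32.1-fold (adjusted p = 7.23e-11). HSD11B1B, named for the enzyme that regenerates active glucocorticoid in mammals, went from 6.44, 6.33, 6.51 and 5.31 to 12.64, 12.87, 12.72 and 12.62. It was dim at E7, with 1 array below the other 3, while the 4 E18 arrays lay close together.

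The thyroid hormone carrier genes SLCO1C1 and TTR rose, as DIO2 did. No count over such carriers was made, and TTR belongs both to this list and to the RPE markers. SLCO1C1, a membrane carrier of thyroxine, rose by 1.63 ± 0.17 from signals of 11.95 to 12.64 at E7 to 13.57 to 14.31 at E18. TTR, the plasma carrier of thyroxine and of the retinol-binding protein, rose 61.6-fold, from 8.62 to 9.07 up to 14.83 to 14.91. The receptors were measured at low level with overlapping ages and no call: THRA changed by 0.13 ± 0.43 (adjusted p = 0.885) and THRB by 0.30 ± 0.48 (adjusted p = 0.749). DIO3 was at 8.27 to 8.85 and 8.33 to 8.80, a change of 0.13 ± 0.18 with adjusted p = 0.685. The 2 falls of the list were the retinoic acid receptor gene RARB (fell by 0.93 ± 0.11) and the orphan receptor gene NR2F2 (fell by 0.79 ± 0.13). ALDH1A3, which makes retinoic acid, rose by 2.20 ± 0.28 and was dim at E7.

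The circadian clock is a feedback loop in which CLOCK or NPAS2 pairs with ARNTL to drive the PER and CRY repressors, with ROR and NR1D receptors and the proline-rich bZIP factors HLF and TEF as a second loop and its output. Of 27 clock and light-input genes 15 rose and 2 fell, with a median change of 0.74. After median centring 15 rose and 0 fell, within the arrays of the shared session 10 rose and 1 fell, and within the other 5 arrays 14 rose and 1 fell. NR1D2, RORA and RORB belong to this list and to the hormone list. Of the risen genes RRH, OPN4 and RGR are opsins or opsin-like and not parts of the clock loop, and OPN4 was dim, with a rise of 1.24 ± 0.36. Its call ended within the shared session (1.25), with array weights (1.21), within the 4 arrays that stood apart (1.40) and without them (1.09), and the change was 0.53 with a pseudocount of 64. The hour of collection is not given in the labels, and age and hour therefore cannot be told apart for genes that cycle.

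HLF, an output factor, had signals of 11.50, 11.24, 11.51 and 11.23 at E7 and 14.03, 14.20, 14.08 and 14.09 at E18, a rise of 2.73 ± 0.07 (6.64-fold, adjusted p = 4.67e-14). CLOCK was at 8.27, 8.29, 8.59 and 8.32, then 9.91, 10.52, 10.37 and 10.13, and rose by 1.87 ± 0.14 (adjusted p = 1.48e-08). In both genes every E18 array exceeded every E7 array, and in CLOCK E18 replicates 2 and 3 were the highest. RORB, RORA and NR1D2 rose by 2.39 ± 0.26, 2.25 ± 0.16 and 2.08 ± 0.16. BHLHE40, a repressor of the loop, rose by 1.45 ± 0.12 and NFIL3, which opposes HLF at its DNA sites, by 1.04 ± 0.13.

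The PER and CRY repressor genes had no common direction. PER2 changed by -0.47 ± 0.22 and was not called (adjusted p = 0.157). It was called lower on the deposited scale (-0.73) and without the 4 arrays that stood apart (-0.88), and its change within the shared session was -0.93. PER3 changed by 0.76 ± 0.29 without overlap of the ages and was not called (adjusted p = 0.0688), nor was the activator gene ARNTL, at 0.34 ± 0.12 (adjusted p = 0.056). CRY1 rose by 0.56 ± 0.16, but the call ended within the shared session (0.27), without the 4 arrays that stood apart (0.48) and in a limma fit with no trend (0.56). BHLHE41 fell by 0.82 ± 0.14, and this call ended after median centring (-0.38). Its change within the shared session was -0.53. NPAS2 rose by 1.03 ± 0.26 and TEF by 1.08 ± 0.22. The calls of both ended within the shared session (1.11 and 0.58), that of NPAS2 also within the other arrays (1.09), and those of both without the 4 arrays that stood apart (0.93 and 0.85). The probe set listed as LOC395100, for which RefSeq gives the synonym CRY4, rose by 2.62 ± 0.43 from a dim E7 level, or by 1.52 with a pseudocount of 64, and its call ended within the shared session (2.31).

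**Figure D2:**
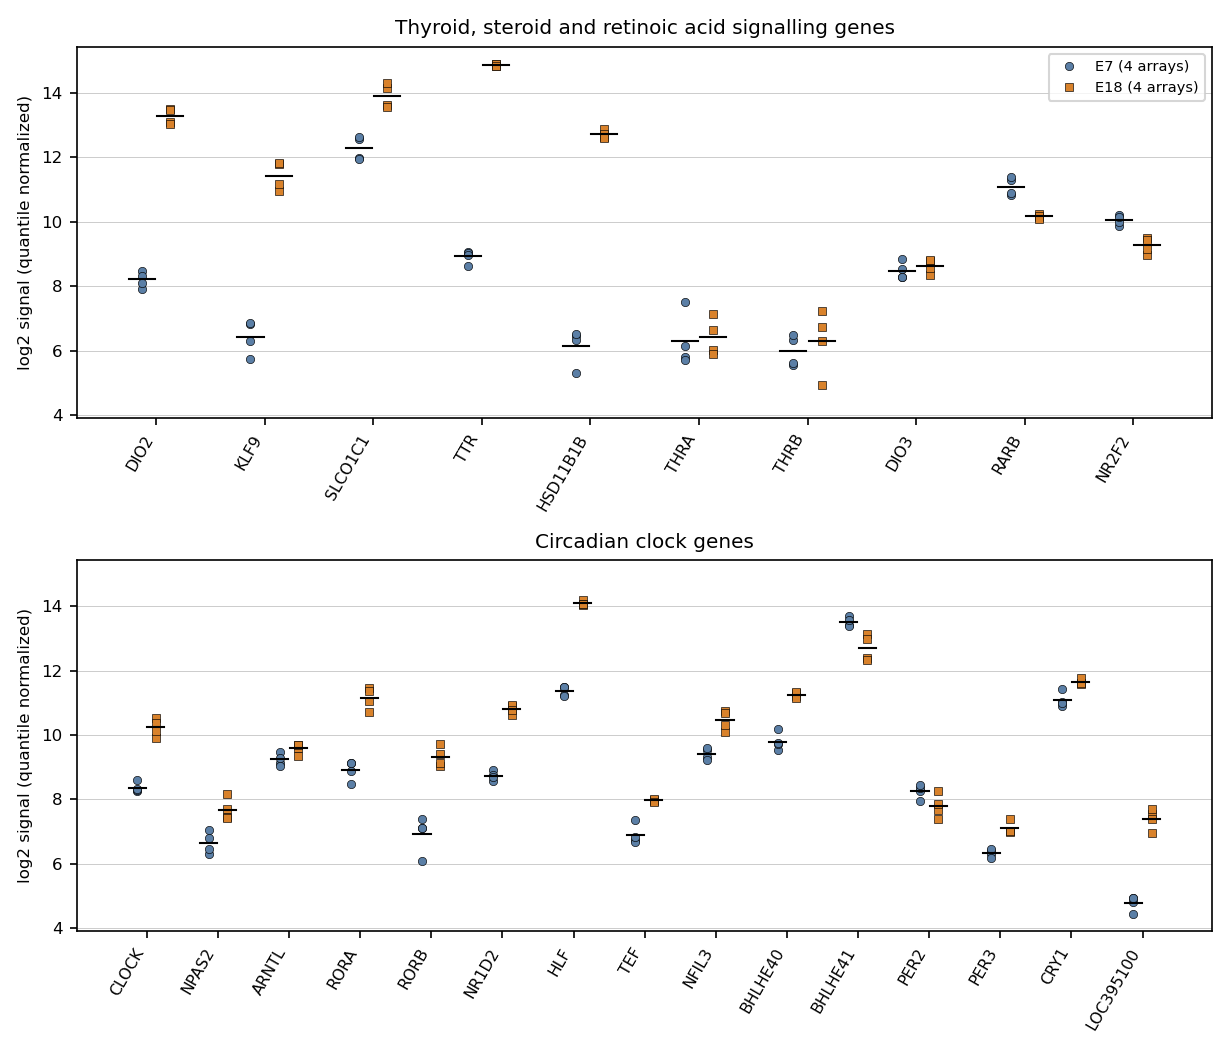
Points are the log2 signals of single arrays (blue circles E7, orange squares E18, 4 arrays each) and lines the means, for hormone signalling genes (top) and clock genes (bottom). DIO2, KLF9, TTR and HSD11B1B lie between about 5 and 7 log2 units apart, THRA, THRB and DIO3 overlap, and CLOCK, RORA, RORB, NR1D2 and HLF are separated while PER2 and ARNTL overlap.

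Falls outnumbered rises among the genes that make ribosomes, splice RNA, move molecules through the nuclear pore and translate messages. Ribosome biogenesis is the assembly of ribosomes in the nucleolus, and 48 of its 67 genes fell and 1 rose, with a median change of -0.56. Splicing factors and hnRNPs fell in 45 of 68 genes and rose in 3 (median -0.48). Nuclear pore and transport genes fell in 32 of 55 and rose in 5 (median -0.41), and translation factors fell in 32 of 58 and rose in 6 (median -0.38). The translation list also holds genes that restrain translation, and some of its falls are of these. The list of aminoacyl-tRNA synthetases, with scaffold proteins of their complex, fell in 13 of 21 genes (median -0.32). EEF1E1, which fell, is counted in both of these lists.

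The direction of these 5 lists was the same on the deposited scale, with 51, 38, 33, 29 and 10 falls. After median centring the falls numbered 30, 12, 15, 12 and 3, each still above the rises, which were 1, 2, 5, 5 and 0. All genes had 1345 falls and 2028 rises on that scale. The falls of splicing, nuclear transport, synthetase and translation genes thus depend on the scaling for most of their number, and those of ribosome biogenesis for fewer.

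DKC1, the pseudouridine synthase of small nucleolar RNPs, was at 10.61, 10.54, 10.69 and 10.48 at E7 and 9.13, 8.60, 8.33 and 9.25 at E18. The ages did not overlap, E18 replicates 2 and 3 were the lowest, and DKC1 fell by 1.75 ± 0.17 (adjusted p = 3.21e-07). NOP56, a core protein of the methylation-guiding RNPs, fell by 1.52 ± 0.15. The abundant nucleolar protein gene NCL fell by 1.48 ± 0.09, from 13.50 to 13.82 down to 12.09 to 12.31, and NSA2, a large-subunit assembly factor, by 1.43 ± 0.08.

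Among translation factors the eIF3 complex, which holds the small ribosomal subunit during initiation, moved nearly as a whole: 9 of 10 measured subunits fell, by 0.69 to 1.41, and 0 rose. After median centring 6 fell. EIF3L was at 13.52, 13.54, 13.45 and 13.38, then 12.07, 12.07, 12.03 and 12.08, with arrays of an age close together, and fell by 1.41 ± 0.06 (adjusted p = 7.95e-12). EIF3B fell by 1.29 ± 0.08 and the elongation factor gene EEF1A2 by 1.60 ± 0.20. Against the list, the genes of translation termination ETF1 and GSPT2 rose, by 0.96 ± 0.12 and 0.84 ± 0.10. GARS, the glycyl-tRNA synthetase gene, fell by 1.19 ± 0.13 and EEF1E1, a scaffold of the synthetase complex, by 1.14 ± 0.07.

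HNRNPA1, an abundant splicing regulator, went from 13.65, 13.59, 13.73 and 13.66 to 12.41, 12.12, 12.16 and 12.27, with no overlap and a fall of 1.42 ± 0.07 (adjusted p = 1.57e-10). Of 11 SR splicing factors 7 fell and 0 rose, but 0 were called after median centring. LSM1, a part of the cytoplasmic mRNA decay complex, rose by 0.88 ± 0.15 against the splicing list. SF3B5 rose by 1.00 ± 0.25, a call that ended within the arrays without an instrument file (0.74) and within the 4 arrays that stood apart (0.57). Of 22 nucleoporins 14 fell and 3 rose, with 9 falls after median centring. NUP205, a scaffold nucleoporin, fell by 1.52 ± 0.13, from 11.76 to 11.99 down to 10.04 to 10.69. Importins, exportins and karyopherins were counted by the symbols IPO, KPNA, KPNB, TNPO and XPO with a number. Of these 21 genes 9 fell and 2 rose, with 4 falls after median centring, led by the importin gene IPO5, which fell by 1.55 ± 0.11. Exportin genes outside this count fell by 0.71 and 0.49. NUP210 rose by 0.88 ± 0.15. It was not called in the shared session (0.53), and without the 4 arrays that stood apart it changed by 0.50.

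**Figure D3:**
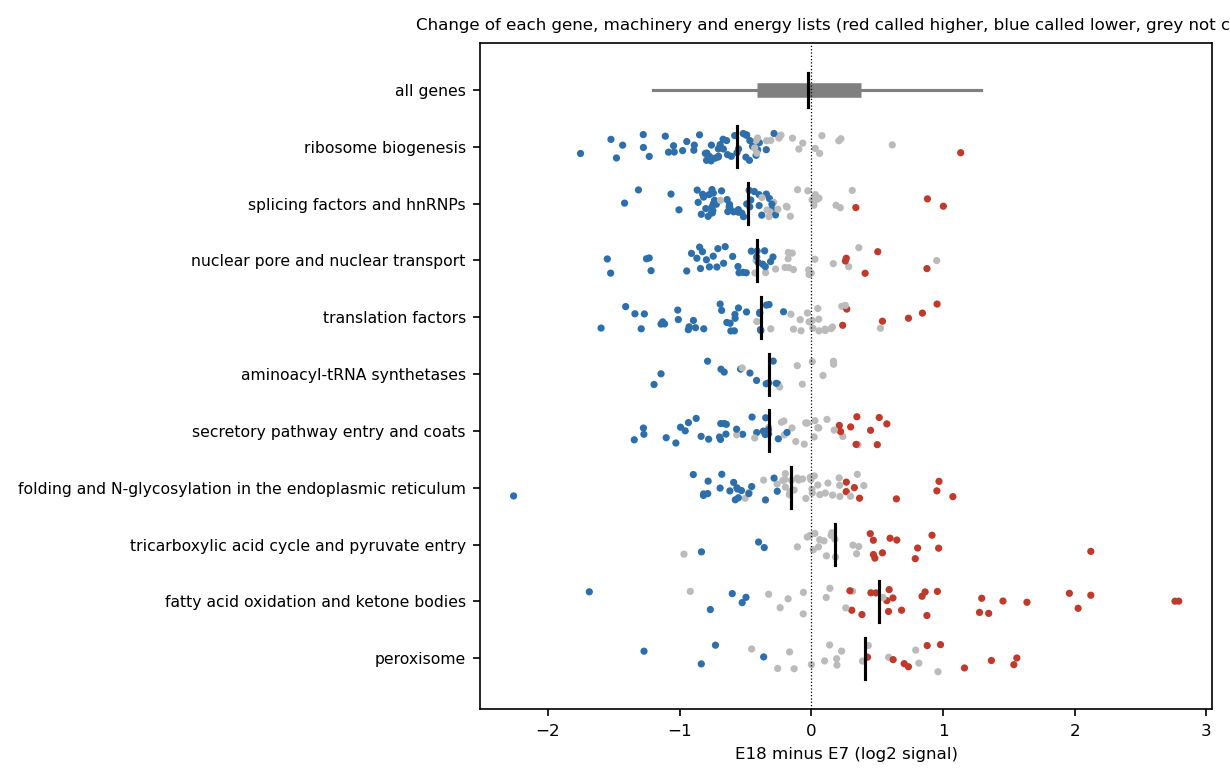
Each point is the change of 1 gene (E18 minus E7, log2 signal) in the list named at the left, red where called higher, blue where called lower and grey where not called; black ticks are list medians, and the top line gives the median, quartiles and 5th to 95th percentiles of all genes. The medians of the RNA- and protein-making lists lie between -0.56 and -0.32, those of the tricarboxylic acid cycle, fatty acid oxidation and peroxisome lists at 0.18, 0.52 and 0.41.

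Falls also outnumbered rises among genes of chromatin, chromosome segregation and replication. Of 91 genes of chromatin remodelling and histone modification 38 fell and 6 rose (median -0.28), or 21 and 5 after median centring. Of 74 chromosome segregation genes 43 fell and 4 rose, with a median change of -1.20. This list had 42 falls after median centring, 26 within the shared session and 31 without the 4 arrays that stood apart. INCENP, a subunit of the chromosomal passenger complex, fell by 3.45 ± 0.29 to a dim E18 level. Against the list rose CENPI, a centromere protein gene (1.64 ± 0.24), and KNTC1, a kinetochore gene (1.39 ± 0.28). Replication licensing and fork genes fell in 22 of 48 and rose in 4, or fell in 13 after median centring and in 9 within the shared session. Cyclins, cyclin kinases and their inhibitors outside mitosis had shares near those of all genes, with 8 of 52 rising and 12 falling, or 9 and 8 after median centring.

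The de novo DNA methyltransferase gene DNMT3B was at 8.57, 8.38, 8.42 and 8.98 at E7 and at a dim 5.14, 4.91, 4.74 and 5.52 at E18, with no overlap. HELLS, a remodeller needed for DNA methylation in mammals, fell by 1.88 ± 0.15. The growth-related transcription factor gene MYCN fell by 2.45 ± 0.11, from 12.17 to 12.41 down to 9.66 to 10.20. GADD45G, a growth arrest gene, rose by 1.83 ± 0.19.

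Related chromatin subunits moved in opposite directions. Among 9 histone deacetylases 3 fell and 2 rose. HDAC2, a class I enzyme, was at 12.81, 12.81, 12.83 and 12.99, then 11.35, 11.03, 10.99 and 11.48, and fell by 1.65 ± 0.10. HDAC10 fell by 2.00 ± 0.14, while HDAC11 rose by 1.68 ± 0.14, from 10.10 to 10.65 up to 11.70 to 12.39. Of 12 genes with the SMARC symbol, which include subunits of the BAF chromatin remodelling complex, 7 fell and 2 rose, or 4 and 2 after median centring. The ATPase genes SMARCA4 and SMARCA2, which replace each other in the complex, changed oppositely: SMARCA4 fell by 1.28 ± 0.17 and SMARCA2 rose by 0.64 ± 0.10. At E7 SMARCA4 had 10.77 to 11.43 and at E18 9.45 to 10.20, and SMARCA2 10.12 to 10.50 and 10.83 to 11.18, with no overlap in either. Of the subunits SMARCD1 and SMARCD2, the former fell by 1.45 ± 0.21 (-0.78 within the shared session, -0.84 without the 4 arrays that stood apart). The latter rose by 1.05 ± 0.20, a call that ended within that session (0.71) and without those 4 arrays (0.60). The remodeller gene CHD1L rose by 1.84 ± 0.17.

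Genes of protein folding and degradation divided. Of 86 cytosolic chaperone genes 28 fell and 14 rose, but after median centring 8 fell and 13 rose, so the direction of the list turned. HSP90AB1, the main cytosolic HSP90, fell by 1.91 ± 0.13, from 13.28 to 13.55 down to 11.17 to 11.86, a call on all 3 scales. All 8 measured CCT chaperonin subunits, which fold actin and tubulin, fell by 0.45 to 0.89, with 1 fall after median centring. CCT2 fell by 0.89 ± 0.06, with a change of -0.49 after median centring. Of 46 genes of autophagy and mitophagy 16 rose and 3 fell (median 0.07), and 15 and 1 after median centring. ULK1, the kinase that starts autophagy, rose by 1.75 ± 0.20, and PINK1, a sensor of damaged mitochondria, by 1.37 ± 0.10. ATG7, the activating enzyme of the autophagy conjugation system, was at 9.26 to 9.54 and then at 10.29 to 10.90, and rose by 1.26 ± 0.11. ATG4A, the protease gene of the same system, fell by 1.06 ± 0.08 (-0.65 after median centring, also a fall). The secretory pathway entry list (28 of 56 fell, 9 rose) and the endoplasmic reticulum folding list (20 of 60 fell, 8 rose) had 9 falls beside 10 rises and 2 beside 8 after median centring, so their direction also turned.

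Among the lists of mitochondria and peroxisomes, fatty acid oxidation had the highest share of rises. Fatty acid oxidation breaks fatty acids down to acetyl-CoA for the tricarboxylic acid cycle, and the RPE uses it for lipids of engulfed outer segments. Of 40 genes of fatty acid oxidation and ketone bodies 24 rose and 5 fell, with a median change of 0.52. The counts were 24 and 7 on the deposited scale, 24 and 3 after median centring, 23 and 4 within the shared session and 20 and 5 within the other arrays. Of 32 tricarboxylic acid cycle and pyruvate entry genes 12 rose and 3 fell (median 0.18). The list is wider than the mitochondrial cycle, and its rises include genes of cytosolic enzymes and of kinases that inhibit pyruvate entry. The fumarase gene of the cycle fell by 0.40, and the genes of oxoglutarate and pyruvate dehydrogenase subunits were not called. The only called rise of at least 2-fold in the list was 2.12, for such a kinase gene. Of 30 peroxisomal genes 10 rose and 4 fell (median 0.41), and both lists had 1 fall after median centring. The list of mitochondrial import, dynamics and chaperones had 13 rises and 14 falls among 54 genes, or 14 and 1 after median centring.

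HADHB, the thiolase subunit of the mitochondrial trifunctional protein, had signals of 11.73, 11.80, 11.73 and 11.73 at E7 and 13.33, 13.33, 13.32 and 13.56 at E18. Arrays of an age lay close together and far from the other age, and the rise was 1.64 ± 0.07 (3.11-fold, adjusted p = 9.31e-12). DECR1, which prepares unsaturated fatty acids for oxidation, rose by 1.96 ± 0.11. All 6 acyl-CoA dehydrogenases were called, 5 rising by 0.39 to 1.29 and 1 falling by 0.60. Peroxisomal genes with rises included PHYH, the oxidase of phytanic acid (1.54 ± 0.10), ABCD2, a very-long-chain fatty acid importer (1.56 ± 0.25), and catalase, CAT (1.37 ± 0.14). PPARGC1A, a coactivator of mitochondrial genes, went against the list and fell by 0.77 ± 0.12.

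The synthetases that activate long-chain fatty acids moved in both directions. ACSL6 was at 9.26, 9.42, 9.89 and 9.88, then 12.58, 12.24, 12.24 and 12.57, and rose by 2.79 ± 0.13 (6.92-fold). ACSL3 rose by 2.03 ± 0.09 and ACSL5 by 2.76 ± 0.29 from a dim E7 level, while ACSL4 fell by 1.69 ± 0.33 to a dim E18 level, a call that ended within the shared session (-1.40). Of 7 fatty acid elongases 3 rose, ELOVL1 by 2.17 ± 0.09, ELOVL2 by 2.01 ± 0.15 and ELOVL5 by 1.42 ± 0.06, and 0 fell. On the deposited scale 3 others were called lower. ELOVL2 and ELOVL5 elongate polyunsaturated fatty acids, and ELOVL1 saturated and monounsaturated ones. SMPD3, a neutral sphingomyelinase gene, rose by 2.86 ± 0.19.

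Creatine kinases buffer cellular ATP. The genes named here were chosen singly, and no count over creatine genes was made. The brain-type kinase CKB rose by 1.68 ± 0.07, from 13.03 to 13.30 up to 14.82 to 14.88. CKMT1B, a mitochondrial form, went from 6.43, 6.70, 6.32 and 7.26 to 12.81, 13.54, 13.28 and 12.73, an 85.2-fold rise with no overlap. GATM, the first enzyme of creatine synthesis, fell by 2.22 ± 0.37 to a dim E18 level, and GAMT, the second, rose by 2.19 ± 0.24, or by 1.12 within the shared session. The mitochondrial outer membrane channel gene VDAC1 rose by 1.78 ± 0.09.

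Carriers of organic ions were among the families with most rises. Of 99 SLC carriers of sugars, monocarboxylates and organic ions 24 rose and 7 fell (median 0.13), 21 and 8 on the deposited scale and 22 and 4 after median centring. Among 10 SLCO organic anion carriers 6 rose, by 0.43 to 3.77, and 0 fell; 5 rose on the deposited scale and after median centring. SLCO1A2 was at 10.74, 10.59, 10.73 and 10.70, then 13.24, 13.72, 13.77 and 13.14, and rose by 2.78 ± 0.12 (6.88-fold, adjusted p = 1.03e-11). SLCO1B1, SLCO1B3 and SLCO3A1 rose by 3.77 ± 0.18, 2.74 ± 0.14 and 2.32 ± 0.21. Within these SLCO genes E18 replicates 2 and 3 were the highest arrays, and no E18 array fell into the E7 range.

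The SLC13 family, sodium-coupled carriers of dicarboxylates, citrate and sulfate, had 3 of 5 members rising and 0 falling. SLC13A5, the citrate carrier, was at 8.02, 7.89, 8.03 and 7.86, then 10.48, 10.49, 10.50 and 10.45, a rise of 2.53 ± 0.09 with the 4 E18 arrays close together. The sulfate carrier SLC13A4 rose by 1.92 ± 0.26. Among amino acid carriers (8 of 33 rose, 6 fell) SLC6A20, a proline carrier in mammals, rose by 5.16 ± 0.24 and SLC7A10, an exchanger of small neutral amino acids, by 2.96 ± 0.09. SLC38A2, a neutral amino acid carrier induced by amino acid shortage, fell by 1.70 ± 0.16. Metal carriers moved both ways, 8 of 25 rising and 8 falling, with 5 falls after median centring. The zinc importer gene SLC39A10 was at 13.45, 13.68, 12.99 and 13.07, then 10.63, 10.02, 10.59 and 10.62, and fell by 2.83 ± 0.15.

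Export pumps and detoxifying enzymes also moved. Of 98 genes of glutathione and xenobiotic metabolism 34 rose and 10 fell (median 0.27), with 34 and 12 on the deposited scale, 35 and 5 after median centring and 24 and 11 within the shared session. Among 10 ABCC exporters 5 rose and 1 fell, and ABCC4, an exporter of organic anions and cyclic nucleotides, rose by 2.59 ± 0.14 from 8.16 to 8.43 up to 10.63 to 11.21. The multidrug pump gene ABCB1 fell by 2.29 ± 0.24, from 10.29 to 10.99 down to 7.80 to 9.03. CYP2J19, known in birds for making red ketocarotenoids from yellow carotenoids, rose by 2.68 ± 0.11, with E7 arrays at 11.90, 11.91, 11.55 and 11.40 and E18 arrays at 14.22, 14.54, 14.53 and 14.20. CYP46A1, the 24-hydroxylase of cholesterol in mammals, rose by 1.87 ± 0.12. GSTT1L, a theta-class glutathione transferase gene, fell by 2.24 ± 0.24, with changes of -1.34 within the shared session and -1.49 without the 4 arrays that stood apart. The plasma membrane calcium pump gene ATP2B1 fell by 2.40 ± 0.22.

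Of 165 ion channel genes 20 rose and 11 fell. The mean over the 14 arrays lay under the limit of 6.2 for 81 of them, against 2802 of all 13008 genes. Of 12 background potassium channels of the KCNK family 2 rose, 3 fell and 7 were not called. The mean lay under that limit for 6 of the 12. KCNK2 was at 12.01, 12.07, 11.90 and 11.90 at E7 and 8.88, 8.01, 7.89 and 9.04 at E18, and fell by 3.52 ± 0.19 (11.4-fold, adjusted p = 2.93e-10). KCNK18 was at 6.33, 6.13, 6.91 and 6.70, then 9.59, 10.58, 10.88 and 9.79, and rose by 3.69 ± 0.26 (adjusted p = 6.83e-09). Neither gene had overlapping ages, which was a condition of their selection, and in both E18 replicates 2 and 3 lay farthest from E7. KCNK7 fell by 3.22 ± 0.51 to a dim level, with changes of -1.82 within the shared session and -2.09 without the 4 arrays that stood apart. The inward rectifier gene KCNJ1 rose by 2.33 ± 0.38.

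Signalling genes showed a mixed picture in which some families leaned one way. Growth factors such as FGF activate the kinase ERK, and in vertebrate embryos the ETV factors, DUSP6 and the sprouty and SPRED inhibitors are known to be induced by that activity. Of 6 ETV genes 3 fell and 1 rose. ETV4 was at 10.57, 10.36, 10.23 and 10.01, then 7.04, 7.00, 7.31 and 7.53, with no overlap, and fell by 3.07 ± 0.17 (8.41-fold). ETV1 and ETV5 fell by 1.14 ± 0.12 and 1.07 ± 0.11. The ERK phosphatase genes DUSP4 and DUSP6 fell by 2.79 ± 0.14 and 1.97 ± 0.10, and SPRED1 by 2.27 ± 0.16. These falls were not general in their families: of 21 DUSP genes 2 fell and 4 rose (4 each on the deposited scale), and of 6 sprouty and SPRED genes 2 fell and 1 rose. DUSP7, which also dephosphorylates ERK, rose by 2.35 ± 0.12, from 9.98 to 10.33 up to 12.26 to 12.83. In all, 102 genes of growth factor receptor kinases and their ligands had 18 rises and 19 falls, or 18 and 11 after median centring. The ligand genes EGF and NRG4 rose by 3.04 ± 0.30 and 2.06 ± 0.13, and the vessel-stabilizing ligand gene ANGPT1 fell by 2.87 ± 0.27.

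Of 51 genes of the Notch, Hedgehog and Hippo pathways 15 fell and 5 rose (median -0.22), or 11 and 5 after median centring. NOTCH1, a receptor, was at 10.49 to 10.77 and then 8.81 to 9.18 and fell by 1.65 ± 0.10. LFNG, which modifies Notch receptors with sugar, fell by 1.47 ± 0.20. TEAD4, the DNA-binding partner of the Hippo effector YAP, was at 12.55, 12.58, 12.53 and 12.50, then 10.91, 10.56, 10.64 and 10.96, and fell by 1.77 ± 0.08. Of the CCN genes known as YAP and TEAD targets in mammals, CYR61 fell by 2.33 ± 0.13 and CCN2 rose by 1.18 ± 0.09. The Hedgehog receptor gene PTCH1 fell by 1.46 ± 0.18, and SUFU, an inhibitor of the pathway, rose by 1.33 ± 0.15.

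The Wnt pathway list (11 of 76 rose, 15 fell) and the TGF-beta and BMP list (10 of 64 rose, 13 fell) had shares of rises and falls near those of all genes. After median centring the falls numbered 13 and 8. Among 10 frizzled receptors for Wnt 4 fell and 2 rose. FZD6 fell by 1.69 ± 0.11, FZD2 by 1.34 ± 0.15, FZD7 by 1.29 ± 0.25 and FZD3 by 1.41 ± 0.36 (-0.92 without E18 replicate 2 and -0.88 without the 4 arrays that stood apart). FZD5 rose by 1.41 ± 0.29, with E7 arrays at 7.74 to 7.90 and E18 arrays at 10.19, 8.68, 8.41 and 9.78. The 2 high E18 values were those of the shared session, where its rise was 2.25, and within the other arrays its change was 0.64 and not called. BMP7 rose by 1.04 ± 0.13, and the BMP antagonist gene CHRDL1 fell by 2.80 ± 0.29, with a change of -1.76 within the shared session.

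Axon guidance molecules, which also steer non-neural cells, had more falls than rises. Of 77 ephrin, semaphorin, netrin and slit genes and receptors 24 fell and 12 rose, or 19 and 15 after median centring. Of 16 ephrins and ephrin receptors 8 fell, by 0.58 to 1.96, and 0 rose, with 6 falls after median centring and 5 within the shared session. EFNB1, a membrane-bound ephrin, fell by 1.96 ± 0.13, from 10.63 to 11.14 down to 8.81 to 9.04. RTN4R, the Nogo receptor, was at 12.05, 11.93, 11.93 and 12.05, then 9.29, 8.58, 8.52 and 9.06, and fell by 3.13 ± 0.13 (8.73-fold). The guidance ligand gene SLIT3 fell by 1.89 ± 0.13 and SEMA3F by 2.69 ± 0.37. The semaphorins differed among themselves, with 7 of 17 rising and 4 falling, among the rises SEMA7A (1.81 ± 0.14), SEMA3C (1.73 ± 0.13) and SEMA5A (1.72 ± 0.17). Of 7 plexins, the semaphorin receptors, 3 fell and 0 rose, with a median change of 0.21. On the deposited scale 2 fell and 1 rose, and after median centring 1 fell and 1 rose.

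Of 93 myosins and actin regulators 28 rose and 25 fell, with 15 falls after median centring. Tubulins and microtubule-associated proteins had 11 rises and 11 falls among 51 genes, shares near those of all genes. Intermediate filaments and septins had 6 rises and 5 falls among 47, both shares below those of all genes. The RPE of this age builds the apical microvilli that wrap photoreceptors, and several risen genes are known from actin protrusions in other cells. MYO3A, a class III myosin of actin protrusions, was at 10.29, 10.37, 9.79 and 9.35, then 12.25, 12.69, 12.63 and 12.28, and rose by 2.51 ± 0.17. MYO3B rose by 4.16 ± 0.42 from a dim E7 level and MYO1E by 2.44 ± 0.31. Of the actin-bundling genes, FSCN1 and PLS3 fell, by 2.48 ± 0.30 and 2.61 ± 0.36, and PLS1 rose by 1.27 ± 0.23, a call that ended within the arrays without an instrument file (1.01). The tropomyosin gene TPM3 fell by 1.95 ± 0.11. Beta-tubulins fell in 4 of 6 genes, among them TUBB2B (1.57 ± 0.12), while TUBB4B rose by 0.98 ± 0.08. MAP7, which binds microtubules and kinesin, rose by 2.81 ± 0.31. Of 11 septins 4 fell and 2 rose.

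Adhesion and matrix genes also moved both ways. Fibronectin, FN1, was at 13.61, 13.35, 13.49 and 13.53, then 10.53, 10.31, 10.28 and 10.52, and fell by 3.08 ± 0.08 (8.48-fold, adjusted p = 1.65e-14). Of 41 integrin and matrix adhesion genes 9 rose and 11 fell (6 after median centring), and ITGBL1, an integrin-like secreted protein, rose by 4.77 ± 0.18, ITGA7 by 1.81 ± 0.25 and ITGAV by 1.09 ± 0.19. Of 23 collagen-modifying and crosslinking genes 10 fell and 6 rose, equal at 6 and 6 after median centring. The lysyl hydroxylase gene PLOD2 fell by 2.33 ± 0.24 and the transglutaminase gene TGM2 rose by 3.36 ± 0.15, from 6.85 to 7.16 up to 10.20 to 10.49. The serpin genes SERPINE3 and SERPINE2 moved oppositely: SERPINE3 was at 14.55 to 14.92 at E7 and 10.42 to 10.81 at E18, and SERPINE2, a thrombin and plasminogen activator inhibitor, at 10.99 to 11.60 and 14.08 to 14.41. Among cadherins, CDH20 and CDH13 rose by 2.92 ± 0.30 and 2.30 ± 0.26, against a 4.36-fold fall of CDH2.

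Sugar-modifying enzymes of the cell surface followed no common direction. Proteoglycan and glycosaminoglycan genes rose in 15 of 76 and fell in 19, and genes of mucin-type glycosylation and sialic acid rose in 10 of 51 and fell in 11, with 7 falls after median centring. The heparan sulfate proteoglycan gene SDC1 fell by 2.95 ± 0.22. CHST3, a chondroitin sulfotransferase gene, fell by 2.89 ± 0.32 to a dim level (-1.88 with a pseudocount of 64), and HS3ST2, a heparan sulfotransferase gene, rose by 3.74 ± 0.29 from a dim one. Of 16 GALNT enzymes, which start mucin-type sugar chains, 2 rose and 4 fell. GALNT11 was at 11.16, 11.08, 10.95 and 11.12, then 12.74, 13.09, 13.14 and 12.77, a rise of 1.86 ± 0.09, while GALNT7 fell to 6.42 to 7.41 from 12.29 to 13.16. ST6GAL1, a sialyltransferase gene, rose by 1.51 ± 0.09.

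**Figure D4:**
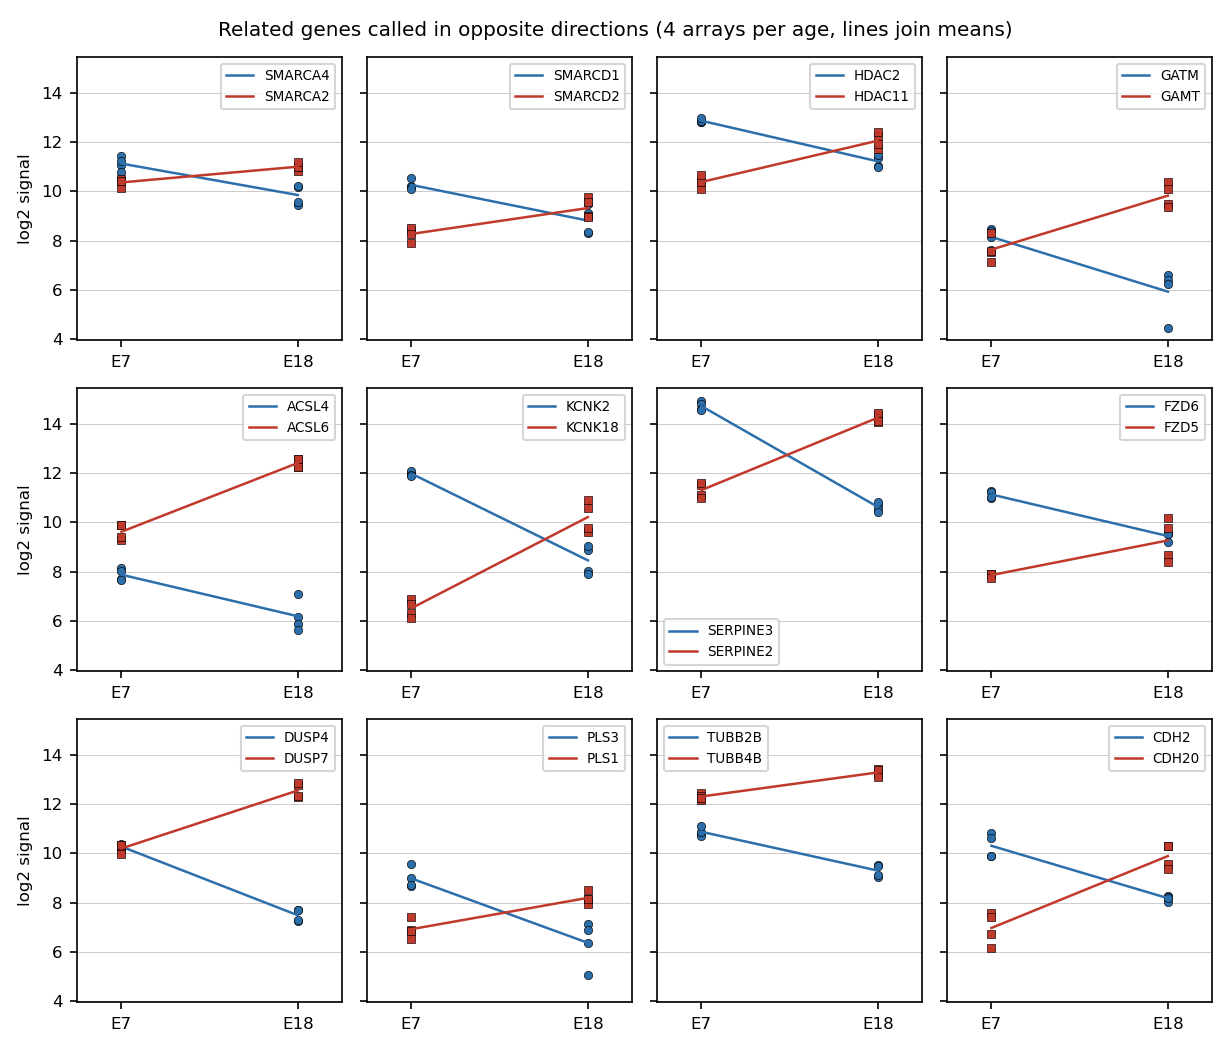
Each panel shows a pair of related genes called in opposite directions, with the log2 signal of single arrays at E7 and E18 (blue circles the gene that fell, red squares the gene that rose, 4 arrays per age) and lines joining the means. SERPINE3 and SERPINE2, KCNK2 and KCNK18 and DUSP4 and DUSP7 differ most in their changes, and SMARCA2 and TUBB4B rose by less than 1 log2 unit.

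Pairs within a family called at least 4-fold in opposite directions were found in the ATP, CDH, COL, DUSP, GPR, KCNK, SERPINE and UBE symbol families. In the last, UBE2T, a ubiquitin-conjugating enzyme gene of DNA repair, rose by 2.96 ± 0.14, from 8.72 to 9.33 up to 11.92 to 11.99, and UBE2U fell by 2.14 ± 0.34.

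Transcription factor genes outside the eye field lists were counted by family. Of 107 bHLH, bZIP, KLF, ETS, TEA and NFI factors 28 rose and 16 fell, or 30 and 8 after median centring. Of 152 homeobox, SOX and forkhead factors 7 rose and 21 fell, or 6 and 13 after median centring. Without the 4 arrays that stood apart 12 rose and 14 fell. Both shares of this list (4.6% and 13.8%) lay below those of all genes, and its median change was 0.04. The mean over the 14 arrays lay under the limit for low signal for 80 of the 152. CEBPB, a factor of metabolic and inflammatory genes, was at 7.57, 7.91, 7.78 and 7.93, then 11.24, 11.35, 11.41 and 11.14, and rose by 3.49 ± 0.12 (11.2-fold). The immediate-early gene EGR1 rose by 4.08 ± 0.15 and FOXO1, an effector of insulin signalling, by 1.78 ± 0.13. SALL1 rose by 1.86 ± 0.09 and its relative SALL4, known from stem cells and early embryos, fell by 1.37 ± 0.19 (-0.86 without the 4 arrays that stood apart).

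Of 71 genes of complement, innate defence and antigen presentation 27 rose and 3 fell (median 0.41), with 22 and 2 on the deposited scale, 24 and 0 after median centring, 17 and 1 within the shared session and 13 and 2 within the other arrays. CLU, a secreted chaperone that also restrains complement, was at a dim 5.47, 5.03, 5.48 and 4.72 at E7 and at 10.64, 9.61, 9.60 and 10.55 at E18, with no overlap. B2M, the light chain of class I antigen-presenting molecules, rose by 2.32 ± 0.17, from 9.46 to 10.47 up to 11.89 to 12.41. Of 7 interferon regulatory factors 5 rose and 0 fell, or 2 within the shared session. IRF1 rose by 2.20 ± 0.44 from a dim level. It was called neither in the shared session (1.05) nor without the 4 arrays that stood apart (0.97). Complement C4 rose by 1.56 ± 0.31, and its call ended within the shared session (0.65). C8G rose by 2.29 ± 0.31, or by 3.47 within that session. VTN, an inhibitor of complement and a matrix protein, rose by 2.55 ± 0.59, and its E18 replicates 1 to 4 were at 9.32, 6.87, 6.90 and 9.26. Its rise was 4.38 within the shared session, and its change of 1.14 within the other arrays was not called.

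Leukocyte markers are given beside this list. Of 26 such genes 4 rose (15.4%, beside 16.3% of all genes) and 0 fell, 8 of the 26 belong to the complement and defence list as well, and their summed linear signal was 6161 to 8100 at E7 and 10441 to 12930 at E18. The macrophage receptor gene CSF1R rose by 1.04 ± 0.10 and CD74, of antigen-presenting cells, by 1.21 ± 0.15. PTPRC, the pan-leukocyte surface protein, was dim at both ages, at 4.21 to 5.73 and 5.47 to 6.37 (adjusted p = 0.44). The part of these cells in the rises was not tested.

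Markers of other cell types were measured as well. Photoreceptor markers rose in 5 of 23 genes with a summed signal of 2010 to 2675 at E7 and 3965 to 6645 at E18, highest in E18 replicates 2 and 3. Endothelial and pericyte markers rose in 4 of 27 and fell in 2, with sums of 3814 to 4168 and 7602 to 8343. Mesenchyme and cartilage markers rose in 7 of 37 and fell in 9, with a median change of 0.04, or 0.27 after median centring. Their sum went from 44206 to 49230 down to 34689 to 38922, beside the falls of FN1 and PLOD2. A linear sum weighs bright genes most, and COL2A1 of this list changed by -3.22 ± 0.22 from an E7 mean of 12.54. Retinal neuron and glia markers rose in 5 of 32 and fell in 5, with sums of 51766 to 56193 at E7 and 57400 to 60640 at E18, beside the falls of guidance genes. Erythrocyte markers separated arrays more than ages: their sums were 6681 to 11603 at E7, and 50475, 4814, 4415 and 51897 in the 4 E18 replicates in order. HBA1, an alpha globin gene, was not called (adjusted p = 0.187). The part of these cells in the results was not tested.

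Families were also read from the gene symbols alone, as the 144 stems shared by at least 10 genes. Besides SLCO and ABCC, stems with many rises and few falls included the aldehyde dehydrogenases ALDH (8 of 15 rose, 1 fell), the steroid dehydrogenases HSD (6 of 12 rose, 0 fell), the respiratory complex I subunits NDUFA (6 of 12 rose, 0 fell), the cytochrome c oxidase subunits and assembly factors COX (7 of 17 rose, 2 fell), the phosphodiesterases PDE (7 of 22 rose, 1 fell), the ESCRT-III subunits CHMP (4 of 10 rose, 0 fell) and the hydrolases ABHD (4 of 11 rose, 0 fell). On the deposited scale these counts were 6 and 3, 4 and 0, 9 and 0, 5 and 4, 5 and 2, 3 and 1, and 4 and 1. The stem NDUFB, of the same complex as NDUFA, had 3 of 10 rising and 1 falling, or 6 and 0 on the deposited scale. Without the 4 arrays that stood apart NDUFA had 3 rises and 0 falls, and NDUFB 0 and 1. Besides ribosomal proteins, stems with many falls included the integrator subunits INTS (7 of 13 fell, 0 rose), the TFIID subunits TAF (9 of 17 fell, 1 rose), the mitochondrial ribosome subunits MRPS (12 of 24 fell, 0 rose), the RNA helicases DDX (14 of 29 fell, 1 rose) and the proteasome subunits PSMD (6 of 11 fell, 0 rose). After median centring the falls numbered 4, 4, 5, 8 and 0. The stem MRPL, also of the mitochondrial ribosome, had 13 of 43 falling and 0 rising, with 2 falls after median centring.

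**Figure D5:**
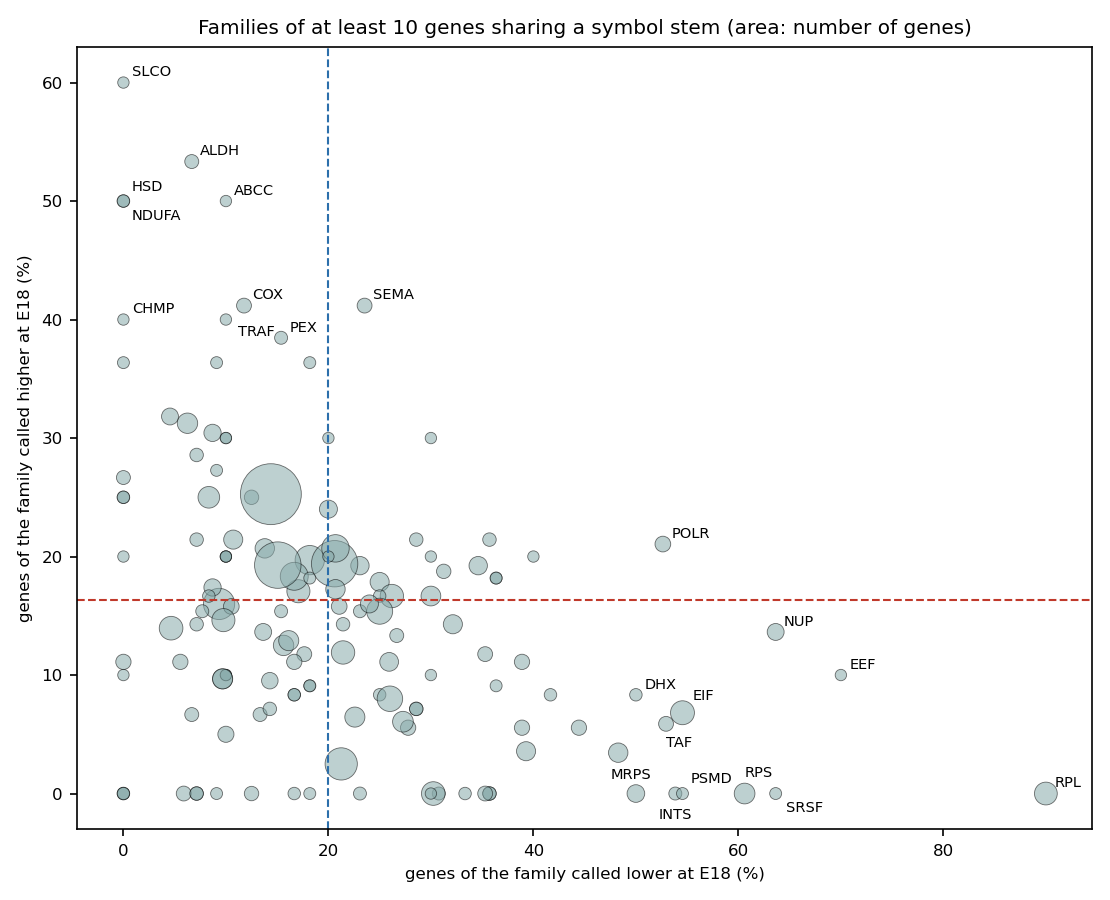
Each circle is a family of at least 10 genes sharing the letters of their symbol, placed by the percentage of its genes called lower (x axis) and higher (y axis) at E18 than at E7; its area grows with the number of genes, and dashed lines give the shares over all genes (20% and 16.3%). SLCO, ALDH, HSD, NDUFA and ABCC lie at the upper left and RPL, EEF, RPS, SRSF and NUP at the right.

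Probe sets of 1 gene did not always move together. Several called probe sets (2 or more) stood for 1599 genes, of which 54 had calls in both directions, and in 8 of them both reached 2-fold. For the replication helicase gene MCM6 the probe set brighter over the 14 arrays rose by 1.09 ± 0.21 and another fell by 1.14. The rise was not called within the shared session (0.44) or without the 4 arrays that stood apart (0.64). For IL13RA2, a decoy receptor gene for interleukin 13, the brighter fell by 1.71 ± 0.21 and another rose by 1.35. The direction of these genes is therefore uncertain.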

How the data were processed

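Total RNA of RPE sheets was biotin-labelled by in vitro transcription and hybridized to Affymetrix chicken arrays, per the labels' protocols. The deposited values are 1 linear intensity per probe set and array. After trimming 2% at each end, the mean intensity of every array was close to 500.1, so the authors had scaled the arrays to a common mean. The summarising software is not given in the sources used here. For 9 of the 14 arrays an instrument file was deposited with settings of the fluidics station and scanner (unit other). They record the same hybridization start and day of scanning, and served only to set these arrays beside the other 5, whose session is not known.

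From these intensities log2(value + 16) was computed and quantile normalized. The 96 control probe sets were left out and no filter on low values was applied. All 14 arrays were fitted together by age with limma 3.58.1 in R 4.3.3 (lmFit, eBayes with a trend), and 2-sided moderated p-values of E18 minus E7 were adjusted over all 38439 probe sets. The supplied probe table gave 1 symbol to 27167 probe sets, several to 177 and none to 11094, of which 1662 were called and stay unnamed. No genome build is named, so no coordinates are given, and no sequences are printed. The chain was tested on simulated data with known changes, and matplotlib 3.10.9 drew the figures.

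The 59 gene lists, the rule for named genes and the members were chosen with earlier results of these data known, and the smaller families within lists (such as eIF3 or SLCO) were picked after their values were seen. The rule covered, in each list, up to 4 called genes with the largest rises and falls without overlap and those moving against the list. It also covered the largest changes of all, and genes of a family changing at least 4-fold in opposite directions. Not every gene that the rule covers is named in the text, so the named genes are a selection from it. The largest changes and the family pairs were also limited to called genes without overlap. Of the 186 genes named, 41 fall outside the rule and were singled out after their values were seen. The alternatives were the deposited scale, median centring, pseudocounts of 1 and 64, a filter on the dimmest 40%, no trend, array weights, a replicate block, the instrument file as a block, the 2 ages alone, array subsets and leaving out each array. In the shared session E7 had 1 array, assumed to vary like the others.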

Additional observations from a re-analysis of the deposited data

Results flagged for a closer look

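With 4 arrays per age, an array is listed here where its gap to the nearest other array of its age is large against the range of that age (Dixon's criterion at 95%). Of 372 groups of 4 arrays among the named genes 20 (5.38%) met it, and chance alone gives about 1 in 20. E7 replicate 4 accounted for 5 of them, E18 replicate 2 for 4 and E7 replicate 3 for 3.

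E7 replicate 4 was the lowest E7 array for HSD11B1B (5.31 against 6.33 in the next), ABCC4 (8.16 against 8.39) and FZD5 (7.74 against 7.89), and the highest for HDAC2 (12.99 against 12.83) and CYP46A1 (9.34 against 8.94). E18 replicate 2 was the lowest E18 array for EEF1A2 (7.12 against 7.86), GATM (4.48 against 6.23), SLC39A10 (10.02 against 10.59) and SALL4 (8.03 against 8.50). E7 replicate 3 was the highest for CLOCK (8.59 against 8.32) and the lowest for MYCN (12.17 against 12.38) and PTPRC (4.21 against 5.50). The remaining arrays were E7 replicate 2 for HADHB (11.80 against 11.73) and ST6GAL1 (11.89 against 11.46), E18 replicate 1 for FZD6 (9.18 against 9.51) and HS3ST2 (10.12 against 9.72), E18 replicate 3 for PER3 (7.39 against 7.02) and EIF3L (12.03 against 12.07), and E18 replicate 4 for CRY1 (11.78 against 11.62) and HADHB (13.56 against 13.33). In 18 of the 20 cases the gene was called in the comparison of ages, PER3 and PTPRC being the exceptions.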

How the results depend on the processing

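The counts of called probe sets and genes stayed within 1.5 times their reported value, except the falls after median centring, which came to 2975 probe sets and 1345 genes. Leaving out single arrays gave 8321 to 9047 called probe sets, and the E7 and E18 arrays alone gave 7525. Of the 176 named genes that were called 159 were called under every alternative, and none reversed. Calls ended for 11 within the arrays of the shared session, 5 within the other arrays and 7 without the 4 arrays that stood apart. Among genes that were not called the sign turned as follows. BEST1 was at 0.17 on the deposited scale, 0.38 after median centring, 0.055 with the instrument file as a block, 0.073 within the shared session, 0.045 within the other arrays, 0.0015 without the 4 arrays that stood apart and between -0.067 and 0.041 without single arrays. THRA was at -0.053, -0.17 and -0.61 on the deposited scale, with the file as a block and within the session, -0.022 within the 4 arrays that stood apart and -0.11 to 0.54 without single arrays. THRB was at -0.011 within the session, -0.45 without the 4 arrays and -0.014 to 0.76 without single arrays. DIO3 was at -0.10 on the deposited scale and -0.063 within the session, and PTPRC at -0.032 there. HBA1 was at -2.23 within the 4 arrays that stood apart and -1.20 within the arrays without an instrument file. The cause was not tested. Same-numbered replicates of E7 and E18 did not pair: the correlations of their deviations were -0.16, 0.15, -0.23 and 0.07. The fit with the replicate number as a block called 9031 probe sets and 4644 genes, and ended no call of a named gene. Precision is limited by 4 arrays per age, and for dim genes by signal near background.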

Other observations

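There were 1662 calls among the 11094 probe sets that the supplied table leaves without a gene, and 140 probe sets represent records of viral sequences. They were not analysed further.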
